A study of Mus musculus with 2 samples.

Results

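Integrins are the cell-surface receptors that tie cells to the surrounding matrix, and laminins are the main adhesive proteins of basement membranes. Their genes were followed in 1 microarray of a wild-type mouse liver and 1 microarray of a liver carrying a Snail transgene. The members were taken by gene name: every probe named for an integrin alpha or beta subunit or for a laminin alpha, beta or gamma chain. This gave 52 probes for 39 genes, of 39422 probes and 31894 gene names on the array. Of these genes 27 encode integrin subunits (18 alpha and 9 beta) and 11 encode laminin chains. The remaining gene, Itgbl1, matches the name pattern but encodes a secreted protein with integrin-like repeats. A further 6 probes with similar names (Itgb1bp1, Itgb1bp2, Itgb1bp3 and Itgb3bp) belong to proteins that bind integrins and were not taken.

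Both animals were of the C57BL/6 strain. The first liver was labelled wild type. The other liver came from an Alb-Cre;CAG-floxed neo-Snail mouse, in which Cre recombinase driven by the albumin promoter, active in hepatocytes, opens a Snail transgene under the ubiquitous CAG promoter. Age, sex, diet and tumour content are not in the labels, and nothing there says how many animals gave the RNA. Total liver RNA, labelled with a single dye (Cy3), was read on Agilent arrays. With 1 array per genotype there was no replicate check, no test and no p-value, and every difference below is one between these 2 arrays.

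The precision is that of single arrays. By the scanner's own call, 50.7% of the 43020 non-control spots stood well above background in the wild type and 54.0% in the other liver, and no spot was saturated. Each log2 difference is the signal on the array labelled Snail minus that on the wild-type array, after each array's 75th percentile (232.7 and 302.1 signal units) was taken off. A gene with higher raw signal can therefore have a scaled difference near 0. The error given after ± is the scanner's estimate for the probes, not a spread between animals. Repeated spots of 239 other probes gave a median SD of the log2 difference of 0.188 at signals under 100, 0.0700 from 100 to 1000 and 0.0433 above, and no member probe had repeat spots. Signals of different probes are not comparable with each other, so only the same probe is compared between arrays. The Snai1 probe read 23.2 in the wild type and 22.3 in the other liver, a log2 difference of -0.44, and so does not check the label. The second array is therefore called the library labelled Snail. The files do not say whether that probe can detect the transgene's transcript.

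An integrin is a pair of an alpha and a beta subunit, and the pairing sets which ligand it binds. Laminins are trimers of an alpha, a beta and a gamma chain that assemble into the sheet of a basement membrane and are held by integrins and dystroglycan. Inside the cell the beta tail recruits talin and kindlin, which connect the receptor to actin at focal adhesions. In healthy liver the hepatocyte plates face a space of Disse without a continuous basement membrane, whereas bile ducts, portal vessels and nerves are surrounded by one. Snail is a zinc finger repressor best known for silencing the E-cadherin gene Cdh1 in epithelial cells, which it does through E-box motifs.

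The probes that read the members whose values differed most are shown so that it can be seen what each array measured. Each probe is 60 bases long, and coordinates are those of the array's own annotation on mouse build mm9, which names no exon or UTR. For most of them only the first 30 bases are given, 5′ to 3′ in the sense of the transcript. Those of alpha subunits that bind laminin lie at chr10:128395274-128395333 on the plus strand (Itga7), chr2:71694756-71694815 on the plus strand (Itga6) and chr11:94906334-94906393 on the minus strand (Itga3).
Itga7: ctctggccttactgtgctgtaccagtccag
Itga6: gagaatgagaacctgggaggtcttgttgtt
Itga3: aagagcaatgaactagaaagcaggtcgccg
The probe of Itgax lies at chr7:135294052-135294111 on the plus strand, that of Lamb3 at chr1:195167537-195167596 on the plus strand and that of Lama1 at chr17:68171924-68171983 on the plus strand.
Itgax: tcccatctacttttgcaacgttggaattga
Lamb3: tgtatgaacacaaaacccaataaaaatctt
Lama1: atgttgaactaaagccacacggacaacaga
Shown whole are a probe of Lama4 at chr10:38825794-38825853 and one of Itgb1 at chr8:131250081-131255976, both on the plus strand. The 60 bases of the Itgb1 probe are spread over 5896 bases of the genome, so they come from a spliced transcript. The capitals in it mark the stretches that encode the docking motifs of the beta tail for talin and kindlin.
Lama4: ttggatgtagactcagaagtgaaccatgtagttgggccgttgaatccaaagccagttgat
Itgb1: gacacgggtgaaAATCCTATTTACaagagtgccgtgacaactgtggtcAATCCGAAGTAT

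Of the 38 subunit and chain genes, 27 were well above background on both arrays, 10 on neither array and 1, Itga3, on the wild-type array alone. None was seen in the library labelled Snail alone, which held for 4.37% of all gene names. Among the 27, the library labelled Snail read Itgax and Lamb3 higher and Itga7, Lama1 and Itga6 lower by 2-fold or more. That is 7.41% higher and 11.1% lower, against 3.96% and 6.34% of the 15466 genes measured on both arrays. The counts of 2 and 3 genes are too small to set the family apart from this background. A difference above 0 was found in 14 of 18 integrin subunits and 4 of 9 laminin chains, against 47.4% of all genes. With normexp, another background correction, Itgal, Lama2 and Lama3 turned from above to below 0. The median log2 difference was 0.25 over the integrins and -0.02 over the laminins, beside -0.03 over all genes. For 5 of the 27 members the difference was smaller than the scanner's error.

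**Figure D1:**
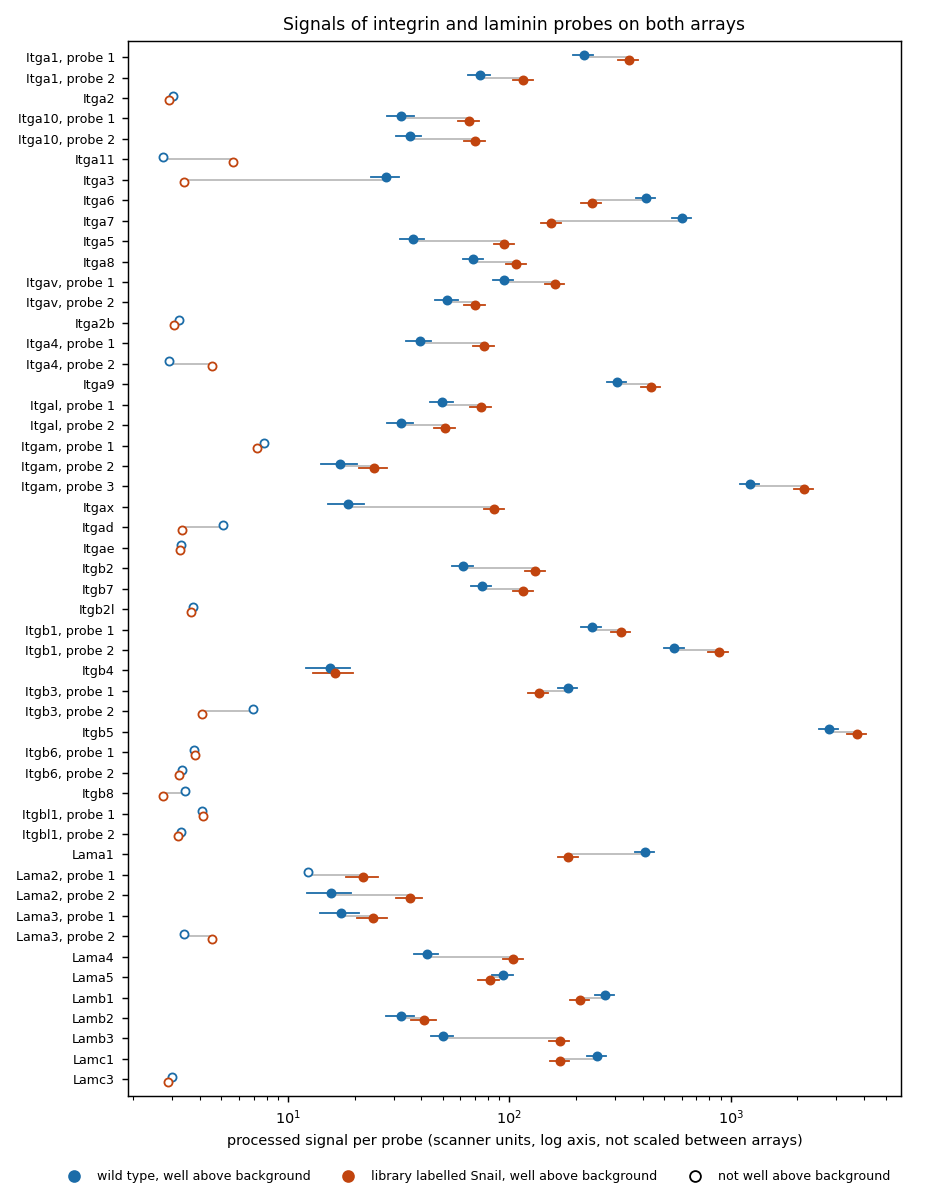
Processed signal of the member probes described in the text (log axis, scanner units, not scaled between arrays) on the wild-type array and in the library labelled Snail, with the scanner's error as a horizontal bar and open points for signals not well above background. Itga3 drops from 27.6 to 3.40, below background, while Itgax goes from 18.6 to 85.6.

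**Figure D2:**
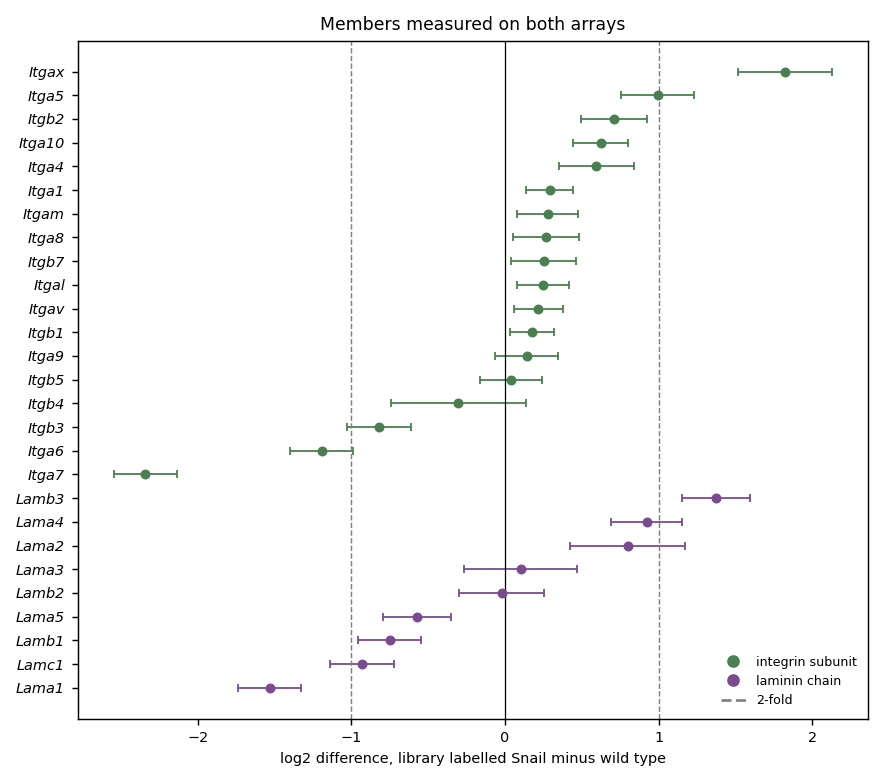
Scaled log2 difference of the 27 members measured on both arrays, with the scanner's error as a bar and dashed lines at 2-fold. Itga7 lies farthest to the left at -2.34 and Itgax farthest to the right at 1.82.

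The 3 alpha subunits grouped here as laminin-binding, Itga7, Itga6 and Itga3, read lower in the library labelled Snail. The grouping is by main ligand, and Itga1 and Itga10, grouped as collagen-binding, had differences above 0. Itga7, best known as the laminin receptor of muscle, read 603.4 on the wild-type array and 154.5 in the library labelled Snail. Its scaled log2 difference was -2.34 ± 0.21, or 5.07-fold lower, and 98.3% of the measured genes had a smaller absolute difference. Itga6, an epithelial and endothelial laminin receptor subunit, read 413.8 and 235.1, a log2 difference of -1.19 ± 0.21 or 2.29-fold lower. With normexp background correction the Itga6 difference was -0.999, just under 2-fold. Itga3, the subunit that binds the laminins of epithelial basement membranes, read 27.6 in the wild type and 3.40, not well above background, in the library labelled Snail. Against the lowest signal called well above background, that is at least 2.78-fold lower. Such a loss, seen on the wild-type array alone, was found for 1.45% of all gene names.

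The beta subunits of these pairs differed less. Itgb4, which pairs with Itga6 in hemidesmosomes, read 15.5 and 16.3, close to background, and its log2 difference of -0.30 ± 0.44 was smaller than its error. Itgb1, the partner of these 3 alpha subunits and of most others, was read by 2 probes. The probe printed above read 556.8 and 880.7 (log2 0.28 ± 0.20), and the second read 235.4 and 320.0 (log2 0.07 ± 0.21). Their mean was 0.18 ± 0.15, or 1.13-fold higher.

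Markers of cells that carry these subunits are given beside them. Of 10 bile duct markers, 3 were measured on both arrays, Sox9 at 2.92-fold higher (log2 0.64 with normexp), Spp1 at 1.49-fold higher and Prom1 at 3.42-fold lower (log2 -1.77, and -1.12 with no filter on dim probes), while the defining keratins Krt19 and Krt7 and the adhesion molecule Epcam were not well above background on either array. The -1.12 of Prom1 averages in a fixed value for a probe dim on both arrays and is no measurement of a smaller difference. The summed scaled signal of this list went from 2.79 to 1.53. This followed Prom1, from 2.28 to 0.67, while Sox9 went from 0.13 to 0.38 and Spp1 from 0.21 to 0.32. All 14 hepatocyte markers were measured and had scaled differences below 0, with a median of -0.64 and a summed scaled signal of 3812 and 2330, but 5 of the 14 were above 0 with quantile normalization, where the median was -0.21. Their part in the values of the laminin receptors was not tested. In whole liver, fewer cells of a type and less RNA per cell cannot be told apart.

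The laminin alpha chains fell on both sides. Lama1, the alpha chain of the laminin of early embryonic basement membranes, read 411.1 and 184.7, a log2 difference of -1.53 ± 0.21 or 2.89-fold lower, and 95.7% of genes had a smaller absolute difference. Lama5, the alpha chain of many adult epithelial and vascular basement membranes, read 93.4 and 81.3, a log2 difference of -0.58 ± 0.22 or 1.49-fold lower. Lama4, the alpha chain of endothelial and mesenchymal laminin, read 42.3 and 104.0, a log2 difference of 0.92 ± 0.23 or 1.89-fold higher. Lama2, known from muscle and peripheral nerve, read 15.7 and 35.4 on its brighter probe, a log2 difference of 0.80 ± 0.37 or 1.74-fold higher. Its second probe read 12.3, not well above background, and 21.9. The Lama2 value stood close to background and was -0.11 with normexp correction. Lama3, the alpha chain of epidermal laminin, read 17.4 and 24.2, a log2 difference of 0.10 ± 0.37, which was -0.27 with normexp correction. Its other probe was below background on both arrays.

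Among the beta and gamma chains, those of the ubiquitous laminins were lower and one of the epithelial laminin was higher. Lamb1, listed on the array as Lamb1-1, read 270.5 and 208.8, a log2 difference of -0.75 ± 0.21 or 1.68-fold lower. Lamc1, the gamma chain of most laminins, read 248.6 and 169.3, a log2 difference of -0.93 ± 0.21 or 1.91-fold lower. The chains of Lama1, Lamb1 and Lamc1 form 1 trimer together, and all 3 transcripts read lower, Lamb1 and Lamc1 by less than 2-fold. The other alpha chains Lama4 and Lama2 read higher, as given above. Lamb3, the beta chain that joins Lama3 in the laminin of the epidermis, read 50.05 and 168.6. Its log2 difference was 1.38 ± 0.22, or 2.59-fold higher, and 0.76 with normexp correction. Its partner Lama3, by contrast, stood within its error. Lamb2, the beta chain of kidney and synapse laminins, read 32.3 and 41.3, a log2 difference of -0.02 ± 0.28. Neither array detected Lamc3 above background.

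Cell type markers were also read beside the laminin chains. Of 12 stellate cell and fibroblast markers 10 were measured, and 9 of these had differences below 0, with a median of -0.82 and a summed scaled signal of 61.4 and 32.7. Most of that sum was Dcn, at 49.6 and 25.8. Lum, a small proteoglycan, was 3.07-fold lower and Lrat, the retinol-storing enzyme of stellate cells, 2.01-fold lower (log2 -0.64 with normexp), while Acta2, the actin of contractile cells, was seen only in the library labelled Snail. Of 12 endothelial markers 10 were measured with a median of 0.07, and their summed scaled signal was 60.8 and 61.6, with Lyve1 3.98-fold higher (log2 1.99, and 1.32 with normexp). The part of stellate or endothelial cells in the laminin values was not tested.

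**Figure D3:**
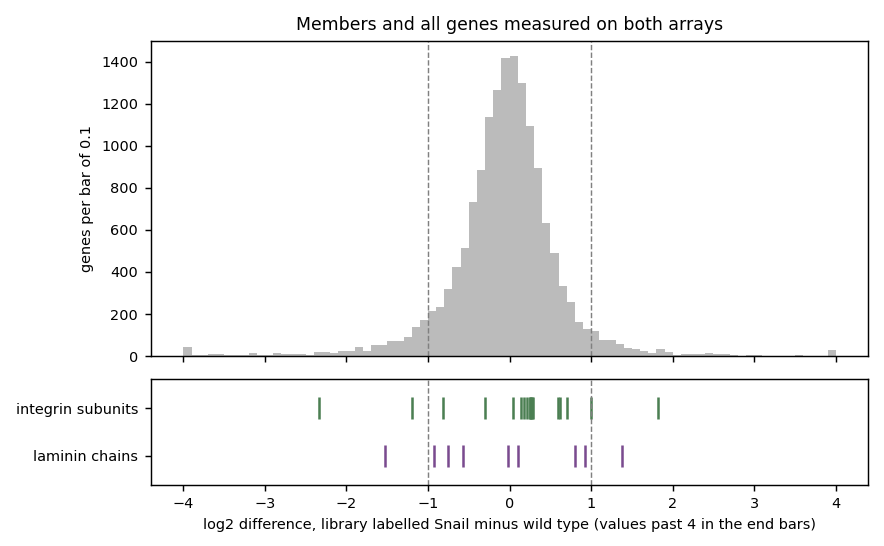
Number of genes in steps of 0.1 of the scaled log2 difference for the 15466 genes measured on both arrays, above the values of the integrin subunits and laminin chains as vertical marks, with dashed lines at 2-fold. Most integrin marks sit just above 0, and the laminin marks are spread between -1.53 and 1.38.

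The alpha subunits that bind the arginine-glycine-aspartate sequence of fibronectin and vitronectin were higher or near 0. Itga5, the fibronectin receptor subunit, read 36.6 and 94.7, a log2 difference of 0.99 ± 0.24 or 1.99-fold higher, just under the 2-fold threshold, and 0.36 with normexp correction. Itga8, the receptor subunit for nephronectin, known from smooth muscle and stellate cells, read 68.8 and 107.6, a log2 difference of 0.27 ± 0.21. Itgav, the vitronectin receptor subunit, was read by 2 probes, one at 94.4 and 160.5 (log2 0.39 ± 0.21) and one at 52.2 and 69.9 (log2 0.04 ± 0.24). Their mean was 0.22 ± 0.16. Itga2b, the platelet fibrinogen receptor subunit, stayed at background on both arrays.

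The beta subunits that pair with Itgav were measured for 2 of 4. Itgb5 read 2785 and 3717, a log2 difference of 0.04 ± 0.20. Itgb3, found on platelets, macrophages and vessels, read 184.2 and 135.5, a log2 difference of -0.82 ± 0.21 or 1.76-fold lower. Its second probe detected nothing above background, so the value rests on 1 probe. Of 9 platelet markers 2 were measured, of which Pf4, a platelet chemokine, was 1.52-fold higher, and 4 were seen only in the library labelled Snail, against 4.37% of all gene names. The log2 bounds of these 4 were 1.12 (Ppbp), 0.43 (Treml1), -0.05 (Gp1bb) and -0.16 (Gp9), so the last 2 are not shown to be higher. The part of platelets in the Itgb3 value was not tested. Itgb6 and Itgb8, which bind latent TGF-beta on epithelial and other cells, were not well above background on either array.

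Of the collagen-binding alpha subunits, Itga1 and Itga10 were measured. Itga1, carried by stellate, endothelial and some immune cells, read 216.2 and 345.5 on one probe and 73.4 and 115.7 on the other, with log2 differences of 0.30 ± 0.21 and 0.28 ± 0.22. Itga10, known from cartilage, read 32.5 and 65.6 on one probe and 35.4 and 70.0 on the other, and its mean was 0.62 ± 0.18 or 1.54-fold higher. The 2 Itga10 probes overlap along most of their length and are not independent readings. The ± 0.18 treats them as independent and is too small, as the single probes had errors of 0.26 and 0.24. Itga2 and Itga11 were not well above background on either array. The subunits of Itga4 and Itga9 are related. Itga4, which binds Vcam1 and fibronectin on leukocytes, read 39.3 and 77.0, a log2 difference of 0.59 ± 0.24 or 1.51-fold higher, which was 0.084 with normexp and 0.059 with no filter on dim probes. Itga9, a tenascin and osteopontin receptor subunit, read 305.6 and 437.5, a log2 difference of 0.14 ± 0.20. A second Itga4 probe stayed at background on both arrays. The 0.059 averages in a fixed value for that probe and is no measurement of a smaller difference.

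The leukocyte integrins showed differences above 0 in the 5 of 8 genes that could be measured, with a median of 0.28, although Itgal was at -0.05 with normexp. Itgax, the alpha subunit typical of dendritic cells and some macrophages, read 18.6 and 85.6, a log2 difference of 1.82 ± 0.31 or 3.54-fold higher. Its wild-type signal stood near background, and with normexp correction the difference was 0.52. Itgb2, the beta subunit shared by Itgal, Itgam and Itgax, read 61.6 and 130.8, a log2 difference of 0.71 ± 0.22 or 1.64-fold higher. Itgal, the lymphocyte subunit that binds Icam1, read 49.8 and 74.8 on one probe and 32.4 and 51.2 on the other, with a mean of 0.25 ± 0.17. Itgb7, the beta subunit of gut-homing lymphocytes, read 74.9 and 115.7, a log2 difference of 0.25 ± 0.21. Itgad, Itgae and Itgb2l were not well above background on either array.

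Itgam, the alpha subunit of complement receptor on neutrophils and macrophages, was read by 3 probes that did not behave alike. They lie on the plus strand at chr7:135212140-135212199, chr7:135260275-135260334 and chr7:135261755-135261814, and their first 30 bases are printed because the last opens with a run of the CA repeat, in capitals.
Itgam first probe: tgttaaccagacaggtgccctctaccagtg
Itgam second probe: aagttcacaatcctgtaccactcattgtgg
Itgam last probe: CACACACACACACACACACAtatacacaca
The first read 7.77 and 7.27, not well above background on either array. The second read 17.2 and 24.5, a log2 difference of 0.13 ± 0.34. The last read 1220 and 2135, a log2 difference of 0.43 ± 0.20. The mean over the second and the last was 0.28 ± 0.20, and without the last, a choice made after its sequence was seen, it was 0.13.

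Markers of immune cells are given beside these subunits. Of 10 general leukocyte markers 9 were measured, 8 with differences above 0, with a median of 0.34 and a summed scaled signal of 16.0 and 19.1, and none was 2-fold apart. Of 14 Kupffer cell and macrophage markers 13 were measured with a median of 0.13 and a sum of 79.6 and 93.7, and Marco, a scavenger receptor, was 2.83-fold higher. Of 11 dendritic cell markers 8 were measured with a median of 0.63 and a sum of 73.6 and 77.5, of which Siglech was 51.7 and 45.8. In this list 6 were above 0 and 2 below, Siglech at -0.17 and Zbtb46 at -0.03. Ccr7, the lymph node homing receptor, was 2.33-fold higher (log2 0.34 with normexp) and Clec9a, a receptor of cross-presenting dendritic cells, 1.97-fold higher (log2 0.097 with normexp), while the defining dendritic genes Flt3 and Xcr1 were not well above background on either array. Of 11 neutrophil markers 6 were measured with a median of 0.51 and a sum of 76.3 and 81.2, mostly Csf3r at 73.0 and 73.8. S100a8 and S100a9, calcium-binding alarm proteins, were 3.96-fold and 2.96-fold higher, with S100a8 at a log2 difference of 1.99 that was 1.31 with normexp. Of the 6, 5 were above 0, but Csf3r and Elane only at 0.02 and 0.10, and Camp was at -0.11. Of 13 T and NK cell markers 9 were measured with a median of 0.19, which was -0.09 with normexp and -0.82 over the 4 markers left by a stricter filter on dim probes. Their summed signal of 20.1 and 7.06 followed Zap70 at 4.54-fold lower and Cd4 at 2.57-fold lower. The 4 measured B cell markers had a median of 0.23, and Ms4a1 was 2.37-fold higher (log2 0.38 with normexp). Skeletal muscle markers were not well above background, and of 6 adipocyte markers only Adrb3 was measured, at 23.0-fold higher (log2 4.53, and 3.32 with no filter on dim probes). The part of more immune cells in the values of the leukocyte integrins was not tested.

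**Figure D4:**
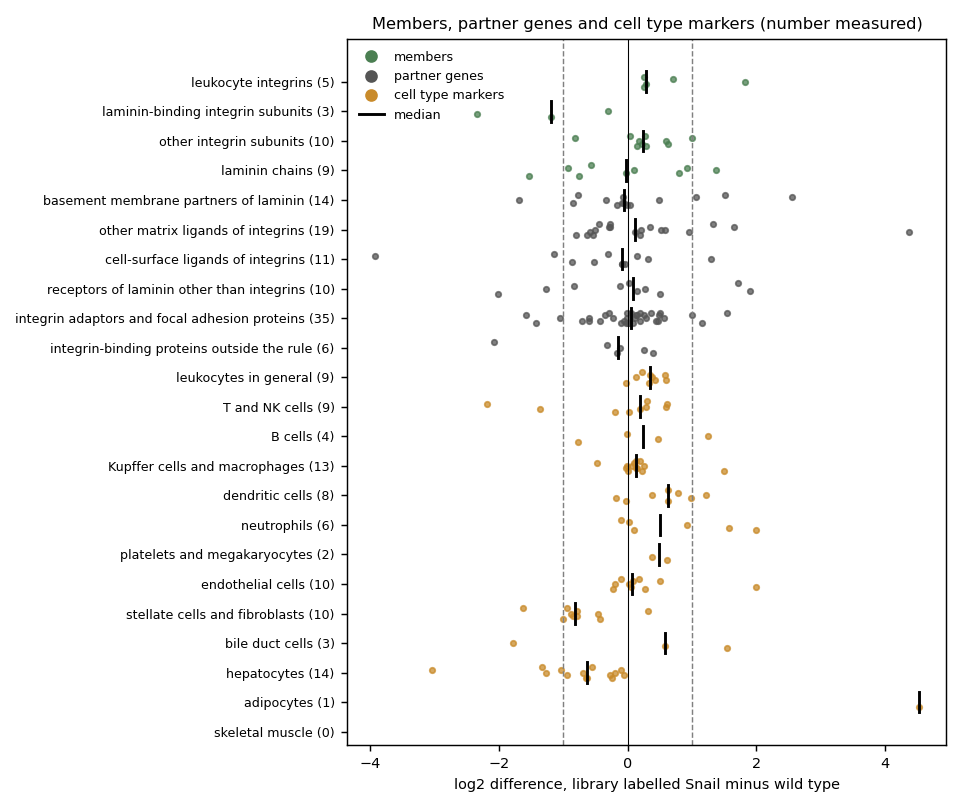
Scaled log2 difference of each gene measured on both arrays in the member groups (green), the partner gene lists (grey) and the cell type marker lists (orange), with the median as a black bar and the number measured in brackets. Stellate cell and hepatocyte markers lie mostly below 0, and the 5 leukocyte integrins lie above 0 in this setting.

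The partners of laminin in basement membranes were mixed. Of 22 genes 14 were measured. By the 2-fold threshold 3 read higher and 1 lower, against 3.96% and 6.34% of all measured genes, and the median was -0.06. For genes seen on the wild-type array alone the share over all gene names was 1.45%. The same shares are the background for the partner lists below, and counts this small do not set a list apart. Nid1, the nidogen that links laminin to collagen IV, read 199.8 and 1528, or 5.89-fold higher, and Nid2 was 2.85-fold higher. Ntn4, a netrin that binds laminin gamma chains, was 2.09-fold higher, and Ntn1 was 3.24-fold lower. Seen on the wild-type array alone were Col4a5, a collagen IV chain, at least 3.03-fold lower, Fras1, an epithelial basement membrane protein, at least 2.29-fold lower, and Col4a4. The major collagen IV chains Col4a1 and Col4a2 had log2 differences of 0.03 and -0.09, and the proteoglycan Hspg2 one of -0.01. Col18a1, the source of endostatin, was 1.70-fold lower.

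Among the other matrix ligands of integrins, 19 of 28 were measured, of which 3 were past 2-fold on the higher side and 0 on the lower, and the median was 0.11. Mfge8, a secreted bridge between Itgav integrins and dying cells, read 1829 and 48937, or 20.6-fold higher. Ccn2, a matrix-associated growth factor, was 3.15-fold higher and Col1a1, a chain of collagen I, 2.50-fold higher. The ligands made by hepatocytes in quantity were lower by less than 2-fold: Fn1, fibronectin, by 1.74-fold and Fgg, a fibrinogen chain, by 1.54-fold. These depended on the scaling. Fn1 went from a log2 difference of -0.80 to -0.50 with quantile normalization, and Fgg from -0.63 to -0.18 with the authors' deposited values. Of the 13 cell-surface ligands 11 were measured with a median of -0.09. Vcam1, the ligand of Itga4, was 2.45-fold higher. Cdh1, E-cadherin and the ligand of Itgae, read 259.9 and 22.2, or 15.2-fold lower (log2 -3.93, and -2.21 with normexp), and F11r, a tight junction ligand of Itgal, was 2.20-fold lower. Icam4, a red cell ligand, was seen on the wild-type array alone and was at least 1.58-fold lower.

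Laminin receptors other than integrins were split. Of 13 genes 10 were measured, 2 higher and 2 lower by at least 2-fold, with a median of 0.09. The syndecans Sdc4 and Sdc1, cell-surface heparan sulfate proteoglycans, were 4.05-fold and 2.41-fold lower. Sgcb, a sarcoglycan, was 3.72-fold higher, and Dag1, dystroglycan, had a log2 difference of 0.51. Bcam, a receptor for Lama5, was seen on the wild-type array alone and was at least 2.50-fold lower. Sgcd was likewise seen on the wild-type array alone and was at least 1.82-fold lower.

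The proteins that work on the inner side of integrins had a median of 0.06, close to that of all genes. Of 44 adaptor and focal adhesion genes 35 were measured, and 3 were past 2-fold on each side. Git2 and Arhgef7, which form a signalling complex at adhesions, were 2.91-fold and 2.23-fold higher, and Zyx, zyxin, was 2.01-fold higher. Sorbs3, vinexin, was 2.97-fold lower, Ptk2b, a kinase related to focal adhesion kinase, 2.69-fold lower and Vcl, vinculin, 2.06-fold lower. Tln1, talin, and Ilk, the integrin-linked kinase, had log2 differences of 0.02 and 0.06. Fermt3, the kindlin of blood cells, Parvg, Flnc and Rap1a were seen only in the library labelled Snail, 4 of the 44, against 4.37% of all gene names. Their log2 bounds were 0.27, 0.43, -0.35 and -0.15, so Flnc and Rap1a are not shown to be higher. Of 9 proteins that bind integrins but are no subunits, 6 were measured and 1 was 2-fold apart, the tetraspanin Cd9 at 4.23-fold lower. Among the partner genes, the 2-fold calls of Nid2, Ntn1, Ntn4, Ccn2, Col1a1, Vcam1, Sgcb, Sorbs3 and Vcl were lost with normexp, where their log2 differences ranged in size from 0.13 for Ntn4 to 0.81 for Ccn2. Arhgef7 stood at 0.34 with no filter on dim probes, which averages in a fixed value for a probe dim on both arrays. That 0.34 is therefore no measurement of a smaller difference.

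The windows of 250 bases before the annotated gene starts were searched for the E-box CAGGTG or its reverse complement CACCTG, the letters Snail is known to bind. RefSeq windows on build GRCm38.p6 were given for 24 of the 38 genes, as 27 windows. The motif was in 8 of these (29.6%), of 8 genes, against 5657 of 32851 windows of all genes (17.2%). The 8 genes were Itga3, Itga9, Itga11, Itgb5, Itgb6, Itgb8, Lama5 and Lamb3. Itga3, Itgb6 and Lamb3 held it in 1 of their 2 windows. Of the 8, Itga3 and Lama5 read lower in the library labelled Snail, Lamb3 read higher, Itga9 and Itgb5 stood near 0, and Itga11, Itgb6 and Itgb8 were not measured. The windows of Itga3 at chr11:95076715-95076964 and of Lama5 at chr2:180225860-180226109, both on the minus strand, are printed with the motif in capitals because these genes read lower. The motif begins 195 bases before the start of Itga3 and 246 and 186 bases before that of Lama5. A match describes the letters only.
Itga3: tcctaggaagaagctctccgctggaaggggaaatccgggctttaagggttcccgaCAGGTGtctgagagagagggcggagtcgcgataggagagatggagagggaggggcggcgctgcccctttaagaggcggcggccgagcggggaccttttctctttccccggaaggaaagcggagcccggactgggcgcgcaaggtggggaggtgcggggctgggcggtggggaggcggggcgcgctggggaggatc
Lama5: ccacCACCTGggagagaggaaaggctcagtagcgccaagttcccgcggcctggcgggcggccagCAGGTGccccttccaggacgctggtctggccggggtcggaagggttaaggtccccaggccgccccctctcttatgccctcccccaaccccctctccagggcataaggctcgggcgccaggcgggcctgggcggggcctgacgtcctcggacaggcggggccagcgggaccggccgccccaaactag

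**Figure D5:**
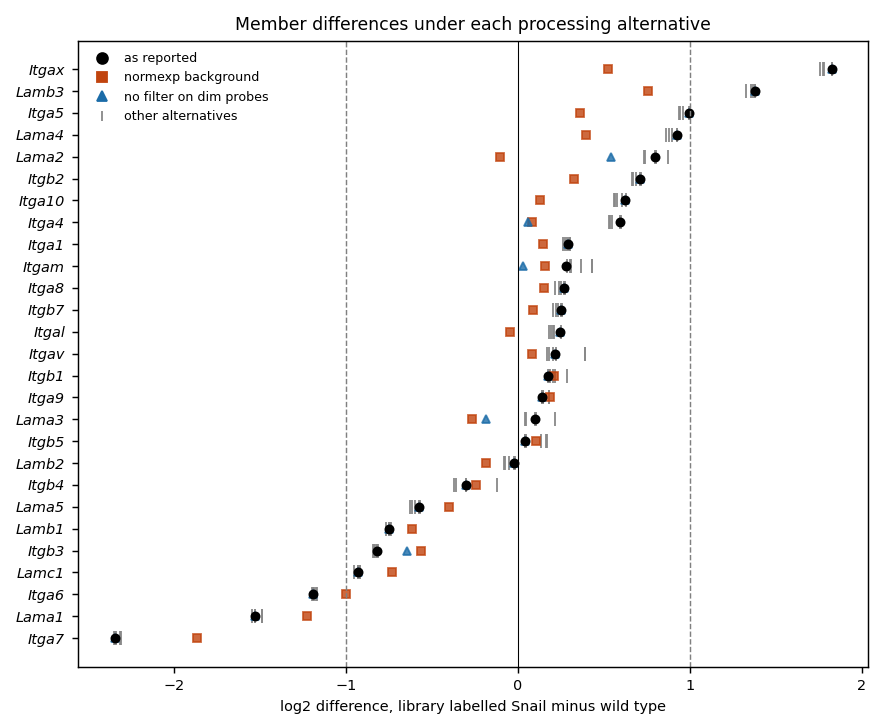
Scaled log2 difference of each of the 27 measured members as reported (black) and under each processing alternative, with normexp background correction in orange squares and no filter on dim probes in blue triangles. Itga7 and Lama1 stay beyond the dashed 2-fold line throughout, and normexp draws Itgax from 1.82 to 0.52 and Lamb3 from 1.38 to 0.76.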

How the data were processed

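The submitters' processing notes name Agilent Feature Extraction 9.5.1.1 as the source of the 1-colour scanner files the authors deposited. The intensity column used, the processed signal, has background and spatial trends removed array by array per the file headers. The authors also deposited a table of linear intensity values of the same arrays, with a median of 17.3 on both. Its log2 values correlated with those of the scanner files at 0.9997 and 0.9998 across probes, and how the arrays were put on 1 scale is not given in the sources used here. It was used only as an alternative. Of 44397 spots, controls and 287 spots flagged as outliers were left out. Log2 signals had the 75th percentile of the non-control spots of their array taken off. Each gene was given the average of its probes well above background on both arrays. Of 39422 probes, 26051 (66.1%) were named through RefSeq accessions and the rest by the array's own name. A gene seen on 1 array got a bound against the lowest signal called well above background on the other. Where its own signal there was higher, as for Ppbp, Acta2 and Col4a4, that signal was used instead. Groups came from the genotype labels. Named were the members, in each partner list up to 5 genes that were 2-fold apart or seen on 1 array only plus up to 3 of the brightest, and in each marker list up to 3 by size and the brightest. Other genes named, such as the defining markers below background, were chosen after their values were seen. Some genes that the rule names are not reported here. The members and lists were chosen with earlier results of these data known. The alternatives tried were normexp correction with offset 50, quantile and loess normalization, the deposited table, other filters on dim probes, the brightest probe, median scaling and a fold of 1.5. Python 3.11.15, pandas 2.3.3, R 4.3.3 and limma 3.58.1 were used, and the calculation was tested on simulated data.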

Additional observations from a re-analysis of the deposited data

How the results depend on the processing

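With 1 array of each genotype, the counts depend on how dim probes are treated. No integrin (0) and no laminin (0) was at least 2-fold higher with normexp correction, which left 1 integrin at least 2-fold lower. A stricter filter that kept mean signals of 100 or more left 9 integrins and 3 laminins. It also gave 0 and 0 higher, but it dropped Itgax and Lamb3, whose mean signals were 39.9 and 91.9. Those counts of 0 therefore do not show that their differences shrank. At 1.5-fold, 5 integrins were higher and 3 lower, and 3 laminins were higher and 3 lower. The share of all genes at 1.5-fold was not counted, so these counts cannot be set against a background. The integrin median was 0.12 with normexp, 0.14 with the stricter filter and 0.028 with no filter, where the median of all genes was -0.47. The laminin median was -0.27 with normexp, -0.93 with the stricter filter, which left few genes, and -0.47 with no filter. Over all genes, normexp gave 297 higher and 572 lower. With no filter, signals under an array's lowest well-above-background signal (13.8 and 12.9) were raised to it. A probe under it on both arrays then takes a fixed log2 difference of -0.47, which is no measurement. That is the value of both the laminin and the all-gene median in this setting. The normexp setting adds an offset of 50 to each signal, which draws the differences of dim probes towards 0. Other causes of these shifts were not tested. Of 27 measured members, 24 kept their sign under every alternative that measured them, the exceptions being Itgal, Lama2 and Lama3. The stricter filter did not measure many of them, and the brightest-probe setting cannot change a gene with 1 probe. In some alternative 4 members moved by over 1.5-fold. No paired analysis was possible because each genotype had 1 array and the labels give no replicate numbers.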
